A study of Mus musculus with 96 samples.

Results

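The small leucine-rich proteoglycans examined here are 10 genes, Dcn, Lum, Bgn, Fmod, Omd, Ogn, Prelp, Aspn, Podn and Ecm2, taken by name from a table of 55376 genes counted in RNA from mouse heart ventricles. All 10 passed the filter on low counts, which 15629 genes passed in all. The 96 libraries fall into 4 groups of 24: tamoxifen females, vehicle females, tamoxifen males and vehicle males. Every group carries the genotype written as iCSBmal1 KO, an inducible knockout, restricted to cardiomyocytes, of the clock transcription factor Bmal1 (listed as Arntl), so the vehicle hearts carry it uninduced and the tamoxifen hearts have had it induced. Each group was sampled every 4 h at 12 circadian times (ct) from ct 18 to ct 62, with 2 libraries a time. The age of the mice is not given in the sources used here. No group received tamoxifen without this genotype, so the drug and the knockout cannot be told apart. The titles also number vehicle males, vehicle females and the tamoxifen libraries in separate runs, while tamoxifen females and males share a run. Anything that follows those runs therefore cannot be told apart from the treatment in either sex, from sex in vehicle hearts, or from the difference between the sexes in the change with tamoxifen. Within the tamoxifen run, 7 females and 12 males are numbered 570 or above, so the numbering is uneven between the sexes in tamoxifen hearts too. The question behind the design is what cardiomyocyte Bmal1 contributes to sex differences and daily rhythms in the ventricle.

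Small leucine-rich proteoglycans are secreted proteins whose core is a curved stack of leucine-rich repeats, many of them carrying chondroitin, dermatan or keratan sulfate chains. They sit on collagen fibrils, where they set fibril width and spacing, and they bind growth factors of the TGF-beta family, receptor tyrosine kinases and Toll-like receptors. In the heart they are made largely by fibroblasts and other stromal cells and are known from infarct healing and fibrosis. The induced deletion is in cardiomyocytes, and the bulk libraries do not show which cells of the tissue the transcripts described here came from. Decorin (Dcn), biglycan (Bgn) and asporin (Aspn) form class I of the family, to which Ecm2 is related by sequence. Lumican (Lum), fibromodulin (Fmod), PRELP (Prelp) and osteomodulin (Omd) form class II, osteoglycin (Ogn) belongs to class III, and podocan (Podn) stands with the noncanonical members.

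The genes lie in 3 clusters and 2 single positions (GENCODE M21 annotation of GRCm38). Ecm2 (chr13:49504810-49532789), Aspn (chr13:49544443-49567565), Omd (chr13:49582462-49592822) and Ogn (chr13:49608046-49624501) follow each other on the plus strand with gaps of 11.7, 14.9 and 15.2 kb that contain 0 whole protein-coding genes. All 4 lie inside the span of Cenpp, a gene on the other strand, with which Aspn shares 7 exon bases and the other three 0. Dcn (chr10:97479609-97518143) and Lum (chr10:97565128-97572703) are both on the plus strand of chromosome 10, 47.0 kb apart. Prelp (chr1:133910304-133921414, minus strand) and Fmod (chr1:134037254-134048277, plus strand) are 115.8 kb apart on chromosome 1. Bgn is at chrX:73483602-73495933 on the plus strand and Podn at chr4:108014791-108096445 on the minus strand. Prelp shares 350 exon bases, 9.682% of its exons, with the antisense gene Gm15851. Whether the counting used strand is not given in the sources used here, so reads of that stretch cannot be assigned to Prelp alone.

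Promoter windows of 300 bases (250 before and 50 after the transcript start, RefSeq, GRCm38.p6) were matched for 8 of the 10 genes, Bgn, Fmod, Omd, Ogn, Prelp, Aspn, Podn and Ecm2, and gave 9 windows because Podn has 2. The neighbours Omd and Ogn are shown because they had the largest fold changes of the chromosome 13 cluster with tamoxifen in females, and Podn because it was rhythmic in every group. Sequences run 5′ to 3′ on the gene's strand, and capitals mark matches to the searched motifs on either strand.
Omd, chr13:49582212-49582511, plus strand: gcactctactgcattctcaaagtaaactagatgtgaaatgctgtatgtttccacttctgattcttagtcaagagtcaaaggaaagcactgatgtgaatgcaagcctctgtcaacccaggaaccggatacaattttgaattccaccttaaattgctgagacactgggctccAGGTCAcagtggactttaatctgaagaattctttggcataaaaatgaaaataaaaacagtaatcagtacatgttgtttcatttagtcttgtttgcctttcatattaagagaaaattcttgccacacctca
Ogn, chr13:49607765-49608064, plus strand: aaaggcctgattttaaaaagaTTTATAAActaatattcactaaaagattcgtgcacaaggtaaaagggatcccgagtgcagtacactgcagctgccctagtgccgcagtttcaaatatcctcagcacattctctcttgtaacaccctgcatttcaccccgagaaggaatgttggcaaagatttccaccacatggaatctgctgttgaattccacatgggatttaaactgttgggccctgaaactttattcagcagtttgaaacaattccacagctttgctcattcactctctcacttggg
Podn window 1, chr4:108031905-108032204, minus strand: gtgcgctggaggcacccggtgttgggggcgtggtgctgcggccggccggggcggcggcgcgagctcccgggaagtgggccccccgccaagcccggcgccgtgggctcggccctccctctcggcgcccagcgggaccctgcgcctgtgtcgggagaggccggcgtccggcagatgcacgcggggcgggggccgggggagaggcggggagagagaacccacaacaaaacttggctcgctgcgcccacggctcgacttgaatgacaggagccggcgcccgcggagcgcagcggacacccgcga
Podn window 2, chr4:108030937-108031236, minus strand: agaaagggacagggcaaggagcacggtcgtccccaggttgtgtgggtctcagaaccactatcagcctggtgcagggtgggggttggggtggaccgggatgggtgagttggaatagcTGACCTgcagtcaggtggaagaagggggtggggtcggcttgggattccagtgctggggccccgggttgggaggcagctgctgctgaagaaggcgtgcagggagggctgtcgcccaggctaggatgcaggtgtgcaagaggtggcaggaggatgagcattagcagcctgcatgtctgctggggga
The E-box CACGTG, the site class that Bmal1 with its partner Clock binds, matched 0 of the 9 windows, against 7.15% of all 32851 windows of that length in the table. The binding motif AGGTCA of the clock receptors REV-ERB and ROR matched in Omd (first base at -80 from the start, plus strand) and in Podn window 2 (at -134, minus strand, printed as TGACCT), against 16.3% of all windows. The D-box TTATGTAA matched in Ecm2 at -170 (0.938% of all windows). The TATA-box letters TATAAA matched in Ogn at -229 and -227 on opposite strands, which overlap, and in Aspn at -207 and -178 (13.6% of all windows). An AP-1 site TGANTCA and the SMAD palindrome GTCTAGAC each matched 0 of the 9 windows, against 7.81% and 0.213% of all windows. These matches describe the letters of the windows and carry no reading of binding.

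Totals per library were 12408557 to 19137075 counts in tamoxifen females, 12541561 to 20596194 in vehicle females, 10144623 to 19353081 in tamoxifen males and 8944955 to 15588379 in vehicle males, and levels are given as CPM, counts over library totals scaled by TMM (trimmed mean of M-values). Before that scaling 1 count was worth at most 0.112 CPM. Arntl checks the labels only in part, because counts per gene do not separate the deleted exons and other cells keep the gene. Its fitted amplitude (distance from mean to peak, log2) was 0.87 ± 0.14 in tamoxifen females against 2.38 ± 0.16 in vehicle females, and 0.87 ± 0.14 in tamoxifen males against 2.05 ± 0.16 in vehicle males (SE). Its fitted mean on the log2 scale was higher with tamoxifen, by 0.44 ± 0.15 in females (edgeR quasi-likelihood test, adjusted p = 0.0195) and 0.36 ± 0.15 in males (adjusted p = 0.0287). Its mean CPM was lower with tamoxifen, at 17.5 ± 7.67 against 20.4 ± 18.5 in females and 15.1 ± 8.34 against 16.3 ± 13.9 in males (SD). The direction of the change in Arntl level thus depended on the measure. The change of its rhythm passed the test in both sexes (edgeR quasi-likelihood test, adjusted p = 1.19e-05 in females and 0.000631 in males). Arntl levels ran from 2.78 to 29.3 CPM in tamoxifen females, 1.01 to 55.6 in vehicle females, 1.3 to 32.4 in tamoxifen males and 1.3 to 44.5 in vehicle males. The tamoxifen female library with the title ending ct54_559 goes against its label: it held 0.248 CPM of Xist, the RNA of the inactive X chromosome, and 10.3 CPM of Ddx3y, a Y-linked gene, while the lowest vehicle female held 231 CPM of Xist. Males held at least 127 CPM of Ddx3y, so this library matched neither sex. The same library held 661 CPM of the atrial myosin light chain Myl7, which exceeded 20 CPM in 13 of the 96 libraries (1 tamoxifen female, 7 vehicle females, 2 tamoxifen males and 3 vehicle males). Cardiomyocyte markers reached 50500 to 57700 CPM in sum at the highest library of each group, and no gene of the fibroblast, mesothelial or cardiomyocyte marker lists was at 0 throughout a group.

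All 10 genes had counts in every library, from 5 counts of Fmod to 18411 counts of Dcn. Per kilobase of exon, mean levels over the 96 libraries were ordered Dcn (112 ± 21.8 CPM per kb, SD), Ogn (88.2 ± 24.4), Lum (47.7 ± 14.4), Bgn (38.4 ± 7.66), Aspn (17.9 ± 3.88), Prelp (15.8 ± 3.09), Ecm2 (9.08 ± 1.77), Podn (6.13 ± 2.98), Fmod (1.91 ± 1.37) and Omd (1.2 ± 0.776). Neighbours in this order overlapped within 1 SD except Ogn and Lum, Bgn and Aspn, and Prelp and Ecm2. Dcn, which binds collagen I and TGF-beta, made up 45.9% of the counts summed over the 10 genes, and Omd, known from bone, 0.191%. Because the tissue was sequenced in bulk, fewer cells of a type and less RNA per cell cannot be told apart. The plot of levels in every library shows that the groups overlapped for each gene and that a few libraries stood far above their group.

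**Figure D1:**
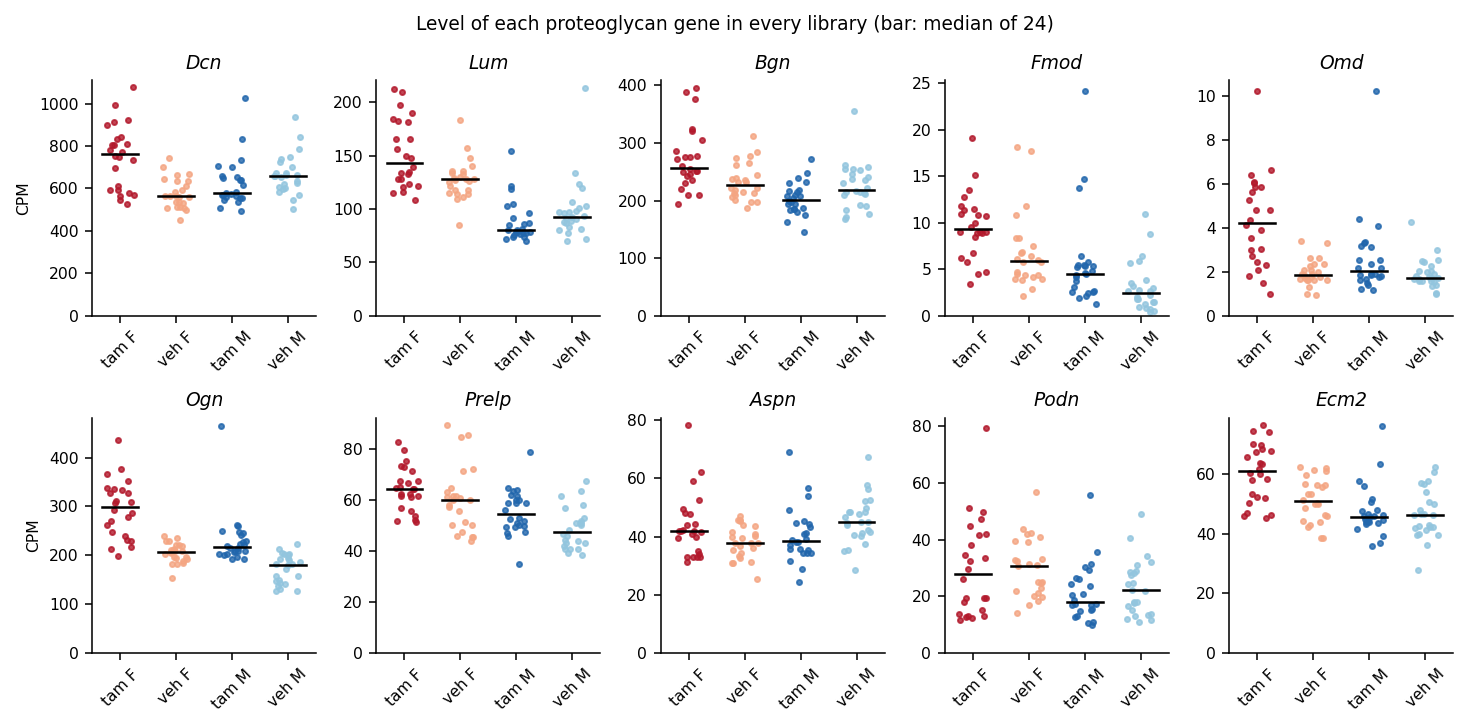
CPM of each of the 10 genes in every library (points) with the median of the 24 libraries of a group (bar), for tamoxifen females (tam F), vehicle females (veh F), tamoxifen males (tam M) and vehicle males (veh M), each panel on its own linear axis. Ogn lay above all vehicle females in 18 of 24 tamoxifen females, and 1 tamoxifen male library at 465 CPM of Ogn and 10.2 CPM of Omd stood far above its group.

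In females, 8 of the 10 genes rose with tamoxifen and 0 fell. The largest rises on the log2 scale were of Omd (1.12), Fmod (0.54) and Ogn (0.52). A gene is called when its p, adjusted over all 15629 tested genes by the Benjamini-Hochberg method (edgeR quasi-likelihood test), is under 0.05. Of all tested genes 15.2% were called higher and 12.3% lower, and the median log2 change was 0.24 over the 10 genes against 0.01 over all tested genes. Every comparison below draws on the same 96 libraries, so comparisons with a group in common share that group's libraries.

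Among class III and II members, Ogn, which in rats and humans has been tied to left ventricular mass, spanned 199 to 436 CPM (median 300) in tamoxifen females and 153 to 240 CPM (median 208) in vehicle females. It rose by 0.52 ± 0.07 on the log2 scale (SE; 1.44-fold, adjusted p = 8.67e-10), was higher at 12 of 12 times, and 18 of 24 tamoxifen female libraries lay above every vehicle female. Omd, a keratan sulfate proteoglycan, ran from 0.967 to 10.2 CPM (median 4.23) in tamoxifen females and from 0.923 to 3.42 CPM (median 1.85) in vehicle females. Its log2 change was 1.12 ± 0.17 (2.17-fold, adjusted p = 7.41e-08), at 12 of 12 times, with 15 of 24 tamoxifen libraries above all vehicle libraries. The lowest Omd libraries of the groups lay close together, and the medians and highest libraries lay apart. Lum, which in the mouse cornea keeps collagen fibrils thin, had 108 to 212 CPM (median 143) in tamoxifen females and 84.9 to 183 CPM (median 128) in vehicle females, a log2 change of 0.25 ± 0.08 (adjusted p = 0.016). Fmod, which guides collagen crosslinking, had 3.39 to 19.1 CPM (median 9.28) in tamoxifen females and 2.07 to 18.1 CPM (median 5.86) in vehicle females, a log2 change of 0.54 ± 0.21 (adjusted p = 0.0424). Its call was lost in 16 of 25 alternatives, among them leaving out the library that goes against its label (0.48, adjusted p = 0.0726). Prelp, which anchors basement membranes to collagen, did not pass, with a log2 change of 0.10 ± 0.06 (adjusted p = 0.178).

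Of class I, Dcn had 525 to 1080 CPM (median 763) in tamoxifen females and 452.1 to 744 CPM (median 564) in vehicle females. It rose by 0.37 ± 0.07 (1.3-fold, adjusted p = 4.52e-06) and was higher at 12 of 12 times, with 14 of 24 tamoxifen libraries above all vehicle libraries. Bgn, a ligand of Toll-like receptors when free of the matrix, rose by 0.22 ± 0.06 (adjusted p = 0.00542), Ecm2 by 0.24 ± 0.06 (adjusted p = 0.00231) and Aspn, which binds TGF-beta, by 0.20 ± 0.08 (adjusted p = 0.0379). Podn, which in mice restrains smooth muscle growth, had a log2 change of -0.06 ± 0.14 (adjusted p = 0.793). Podn ran from 11.5 to 79.5 CPM in tamoxifen females and from 14.1 to 56.7 CPM in vehicle females, so the groups overlapped over most of their range. Without the 19 tamoxifen libraries numbered 570 or above (7 females and 12 males) the number of the 10 genes called higher in females was 4, and the Lum, Bgn, Fmod and Aspn calls were lost at 0.11, 0.16, 0.53 and 0.06. Lum also lost its call without ct 34 (0.22) or ct 46 (0.21), Bgn without ct 34 (0.17), and Aspn in 13 of 25 alternatives. The library with the title ending ct18_575 was the highest tamoxifen female for Dcn, Bgn, Omd, Ogn, Aspn and Ecm2. It was left out only together with other libraries, as without ct 18 or without those numbered 570 or above. Dcn, Omd and Ogn passed in every alternative run.

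Fibroblast markers moved beside these genes: 7 of 12 rose and 0 fell in females, and their summed level was 2400 ± 289 CPM (1840 to 3110) in tamoxifen females and 2210 ± 252 CPM (1910 to 3050) in vehicle females (SD, n = 24 each). The largest of these rises were of Pi16 (0.44 ± 0.10), Dpt (0.35 ± 0.09), Dpep1 (0.31 ± 0.08) and Mfap5 (0.31 ± 0.10), and the part of fibroblast content in the proteoglycan changes was not tested. The marker Gsn, at a mean of 1220 CPM over the 96 libraries, made up much of the fibroblast sum. Macrophage markers fell in 7 of 8 cases. The atrial gene Myl7 fell by 3.75 (SE 1.10, adjusted p = 0.00614) and Myl4 fell by 2.15 (SE 0.79, adjusted p = 0.0333), beside 1 tamoxifen female and 7 vehicle females over 20 CPM of Myl7. Mesothelial markers, of the sheet that covers the heart, passed in 0 of 8 cases.

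In males, 4 genes rose with tamoxifen, namely Fmod, Omd, Ogn and Prelp, and 2 fell, Bgn and Aspn. Here 70% of all tested genes were called, 32.2% higher and 37.8% lower, so a call of a single gene was common in this comparison. The median log2 change was -0.03 over the 10 genes and -0.05 over all tested genes. Ogn had 192 to 465 CPM (median 217) in tamoxifen males and 126 to 224 CPM (median 181) in vehicle males. Its log2 change was 0.42 ± 0.07 (1.34-fold, adjusted p = 7.77e-08) with 12 of 12 times higher, and 9 of 24 tamoxifen male libraries lay above every vehicle male. Ogn thus passed in the same direction in both sexes and in every alternative run, with values of 0.41 to 0.58 in females and 0.29 to 0.56 in males.

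Fmod in males had the largest log2 change of the 10 genes, 0.94 ± 0.24 (1.92-fold, adjusted p = 0.00034), with 1.21 to 24.1 CPM (median 4.5) in tamoxifen males and 0.39 to 10.9 CPM (median 2.4) in vehicle males. The groups overlapped over most of their range, and 3 tamoxifen male libraries stood above all vehicle males. Prelp rose by 0.19 ± 0.06 (adjusted p = 0.00313) and Omd by 0.40 ± 0.18 (adjusted p = 0.0397). Bgn fell by 0.14 (SE 0.07, adjusted p = 0.0455) and Aspn fell by 0.17 (SE 0.08, adjusted p = 0.0387), both lower at 10 of 12 times. Dcn, Lum, Podn and Ecm2 did not pass, with log2 changes of -0.09, -0.16, -0.10 and 0.04. A single library, the tamoxifen male with the title ending ct58_594, was the highest of its group for Dcn, Lum, Bgn, Omd, Ogn, Aspn and Ecm2. Without it the Omd change was 0.26 (adjusted p = 0.158), and the Lum change was -0.21 and passed (adjusted p = 0.017).

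Of the male calls, those of Omd, Bgn and Aspn were lost in 11, 12 and 12 of 25 alternatives, that of Fmod in 1 (the first 24 h) and that of Prelp in 2. The fall of Aspn was 0.03, the opposite sign, with offsets for gene length and GC content, and the fall of Bgn did not pass under DESeq2 or relative log expression scaling. With library totals alone as scaling the median of all tested genes moved to -0.14, and Omd and Prelp no longer passed, at 0.32 and 0.10. Of fibroblast markers 1 rose (Lamc1, 0.28 ± 0.05) and 4 fell in males (Mfap5, Dpt and Pi16 by 0.34, 0.28 and 0.26 among them), with sums of 2000 ± 289 CPM in tamoxifen males and 2110 ± 276 CPM in vehicle males. Of mesothelial markers 3 rose, Lrrn4 by 1.32 ± 0.32, Upk3b by 0.93 ± 0.28 and Msln by 0.85 ± 0.26, and Wt1 fell by 0.49. Endothelial markers fell in 8 of 8 cases. The part of these cell types in the changes was not tested.

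**Figure D2:**
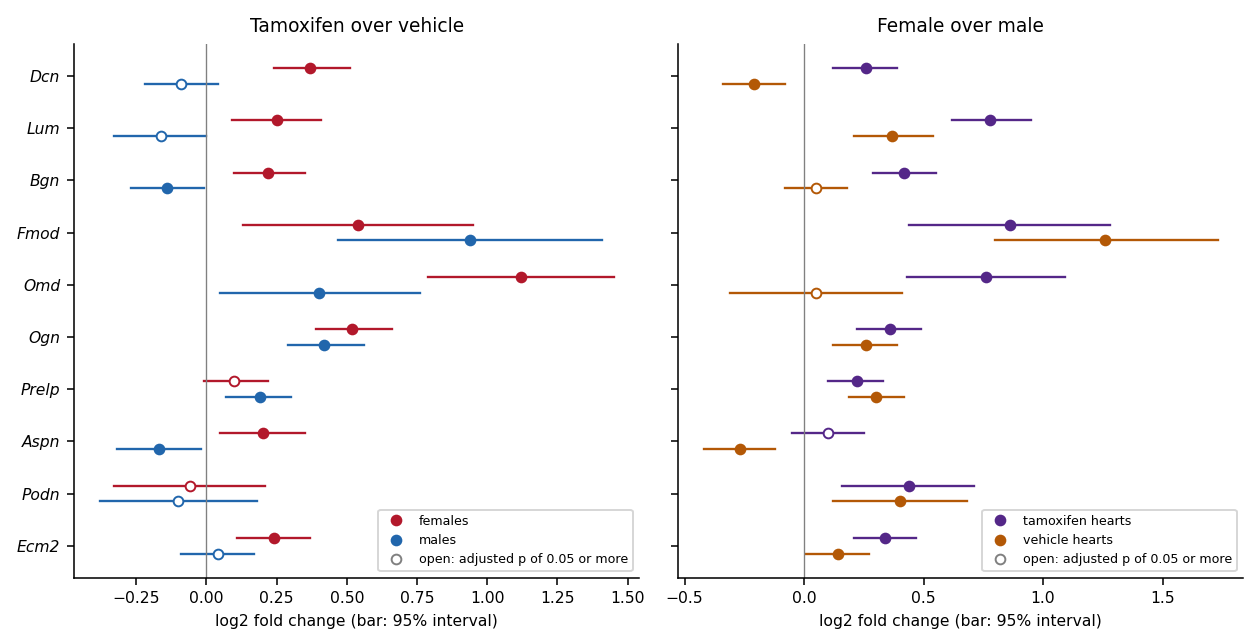
Log2 fold changes of the 10 genes with 95% intervals, for tamoxifen over vehicle in females and males (left) and for female over male in tamoxifen and vehicle hearts (right); open points did not pass an adjusted p of 0.05. Dcn, Lum, Bgn and Aspn lay above 0 with tamoxifen in females and below 0 in males, while Fmod, Omd and Ogn lay above 0 in both sexes.

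The difference between the sexes in the change with tamoxifen was tested itself, as females minus males; it includes the vehicle groups, whose sexes come from separate number runs. It passed for Dcn (0.46 ± 0.09, adjusted p = 3.42e-05), Lum (0.41 ± 0.12, adjusted p = 0.00226), Bgn (0.37 ± 0.09, adjusted p = 0.000605), Aspn (0.37 ± 0.11, adjusted p = 0.0027) and Omd (0.72 ± 0.25, adjusted p = 0.0114), and all 5 were positive. Among all tested genes 52.3% were called, 27% positive and 25.4% negative. For Fmod, Ogn, Prelp, Podn and Ecm2 the values of -0.40, 0.10, -0.08, 0.04 and 0.20 did not pass, with 95% intervals whose lower ends were -1.03, -0.09, -0.25, -0.35 and 0.02. In the second 24 h alone Lum (0.38) was the 1 gene called positive and Prelp (-0.29) the 1 called negative, and genes called positive in the whole table numbered 2364 there, against 4216 over both days. Omd also lost its call without ct 34 (0.59). Fibroblast markers had 7 positive calls and 1 negative call of 12 here.

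Female tamoxifen hearts held more of these transcripts than male tamoxifen hearts for 9 of the 10 genes, while 7.68% of all tested genes were called, 4.08% higher in females and 3.6% lower. The median log2 difference, female minus male, was 0.39 over the 10 genes and -0.00 over all tested genes. Lum had the smallest p of the 10 genes, at 108 to 212 CPM (median 143) in tamoxifen females and 70.1 to 154 CPM (median 80.1) in tamoxifen males. It differed by 0.78 ± 0.08 (1.72-fold, adjusted p = 2.29e-12) at 12 of 12 times, and 10 of 24 female libraries lay above every male library. Bgn had 193 to 396 CPM (median 257) in tamoxifen females and 145 to 272 CPM (median 202) in tamoxifen males, a difference of 0.42 ± 0.07 (adjusted p = 7.55e-07) at 12 of 12 times. Lum and Bgn kept their calls in every alternative run, at 0.70 to 0.86 and 0.35 to 0.49.

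The other calls in tamoxifen hearts were Fmod (0.86 ± 0.21, adjusted p = 0.00364), Omd (0.76 ± 0.17, adjusted p = 0.000681), Podn (0.44 ± 0.14, adjusted p = 0.0351), Ogn (0.36 ± 0.07, adjusted p = 6.3e-05), Ecm2 (0.34 ± 0.06, adjusted p = 5.31e-05), Dcn (0.26 ± 0.07, adjusted p = 0.00635) and Prelp (0.22 ± 0.06, adjusted p = 0.00791). Aspn did not pass, at 0.10 ± 0.08. Podn lost its call without the library that goes against its label, the highest of its group at 79.5 CPM (0.24, adjusted p = 0.229), but not without all 13 libraries over 20 CPM of Myl7, of which it is 1 (0.34, adjusted p = 0.00808). With the number run of the tamoxifen titles as a term, Podn did not pass either (0.39), and the other 8 calls held. Podn lost its call in 14 of 26 alternatives, and Dcn lost its call without ct 54 (0.21). When the libraries numbered 570 or above were left out, 5 genes were called higher, and Dcn, Fmod and Prelp did not pass, at 0.22, 0.46 and 0.25. Fibroblast markers were higher in 6 of 12 cases and lower in 1 in tamoxifen females (Pi16 by 0.66 ± 0.10 and Mfap5 by 0.48 ± 0.10, against Dpep1, lower by 0.55), beside sums of 2400 ± 289 CPM in tamoxifen females and 2000 ± 289 CPM in tamoxifen males, and their part in the difference was not tested.

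In vehicle hearts the direction was mixed: 6 genes were higher and 2 lower in females. Sex and number run coincide in the vehicle groups and cannot be told apart. Of all tested genes 68.3% were called in this comparison, 31.8% higher and 36.5% lower. Fmod differed most, with 2.07 to 18.1 CPM (median 5.86) in vehicle females and 0.39 to 10.9 CPM (median 2.4) in vehicle males, a difference of 1.26 ± 0.23 (2.4-fold, adjusted p = 1.98e-06) at 11 of 12 times. Podn (0.40 ± 0.14), Lum (0.37 ± 0.08), Prelp (0.30 ± 0.06), Ogn (0.26 ± 0.07) and Ecm2 (0.14 ± 0.06) were also higher, with adjusted p of 0.00894, 6.13e-05, 4.15e-06, 0.000591 and 0.0485. Dcn was lower in vehicle females, at 452.1 to 744 CPM (median 564), than in vehicle males, at 505 to 939 CPM (median 661), a difference of -0.21 ± 0.07 (adjusted p = 0.00438). Aspn was lower as well, at -0.27 ± 0.08 (adjusted p = 0.00143), while Bgn and Omd did not pass at 0.05 each. Dcn therefore had opposite signs between the sexes in tamoxifen and vehicle hearts, 0.26 and -0.21, which is the difference tested above.

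Mesothelial markers differed in the same comparison, 7 of 8 higher in vehicle females and 1 lower, with sums of 38.1 ± 16 CPM in vehicle females and 25.4 ± 17.7 CPM in vehicle males. Lrrn4 (1.83 ± 0.31), Upk3b (1.26 ± 0.28), Krt19 (0.88 ± 0.30) and Msln (0.81 ± 0.26) differed most, and their part in the Fmod difference was not tested. Endothelial markers were lower in vehicle females in 8 of 8 cases. Leaving out 10 vehicle male libraries with more counts in the annotation class TEC than any other library ended the calls of Dcn, Aspn and Ogn, at -0.15, -0.22 and 0.13, and left Lum, Fmod, Prelp, Podn and Ecm2 called. The Ecm2 call was lost without ct 38, 42, 46, 50, 54 or 62, at 0.08 to 0.15.

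Podn was the only one of the 10 genes called rhythmic in all 4 groups. Rhythm was tested as a 24 h cosine and sine within each group, and the amplitude is the log2 distance from the mean to the fitted peak. The amplitude of Podn was 0.79 ± 0.14 in tamoxifen females (peak ct 13.1, adjusted p = 0.000131), 0.55 ± 0.14 in vehicle females (peak ct 12.7, adjusted p = 0.00489), 0.55 ± 0.14 in tamoxifen males (peak ct 13.5, adjusted p = 0.0216) and 0.60 ± 0.14 in vehicle males (peak ct 15.1, adjusted p = 0.00153). Fitted peak to trough this was 2.97-fold, 2.13-fold, 2.13-fold and 2.31-fold. Rhythms were called for 17.1%, 34.5%, 8.03% and 55.2% of all tested genes in the same order of groups. Without the 10 vehicle males high in TEC counts, genes called rhythmic in vehicle males numbered 2932, against 8632 with them. Leaving them out removed every vehicle male at ct 30 and ct 34, so fewer times were fitted. At ct 38 Podn had 44.7 and 49.6 CPM in tamoxifen females and 40.8 and 42.4 CPM in vehicle females, and at ct 26 it had 11.5 and 13.2 CPM in tamoxifen females and 14.1 and 18.3 CPM in vehicle females. Tamoxifen males had 23.7 and 29.2 CPM at ct 38 and 10.9 and 12.8 CPM at ct 26, and vehicle males 27.4 and 32.1 CPM at ct 38 and 13.1 and 13.4 CPM at ct 26. The libraries of these times did not overlap in any group. Both times lie near the fitted peak and trough of the same libraries, so this separation is no further support for a rhythm. A change of the Podn rhythm with tamoxifen did not pass in females (vector 0.25 ± 0.20, adjusted p = 0.757) or in males (0.24 ± 0.20, adjusted p = 0.625), which does not show that the rhythms are alike.

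The libraries with the most Podn were also those with the most Myl7 in each group. They held 79.5 CPM of Podn in tamoxifen females (ct 54), 56.7 CPM in vehicle females (ct 54), 55.9 CPM in tamoxifen males (ct 34) and 49.1 CPM in vehicle males (ct 22), with 390 to 661 CPM of Myl7. Without all 13 libraries over 20 CPM of Myl7, the Podn amplitude was 0.98 in tamoxifen females, 0.67 in vehicle females, 0.49 in tamoxifen males and 0.67 in vehicle males, and each passed. The sex difference of Podn in vehicle hearts then passed too, at 0.39. In the second 24 h alone the Podn rhythm did not pass in tamoxifen females (0.65, adjusted p = 0.152), vehicle females (0.50, adjusted p = 0.152) or tamoxifen males (0.33, adjusted p = 0.678), and without the vehicle males high in TEC counts it did not pass in vehicle males (0.57, adjusted p = 0.105). Without the libraries numbered 570 or above the rhythm in tamoxifen males did not pass (amplitude 0.65), nor did it without ct 26 (0.50) or ct 34 (0.48). Leaving out the libraries numbered 570 or above removed every tamoxifen male at ct 30 and ct 62.

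**Figure D3:**
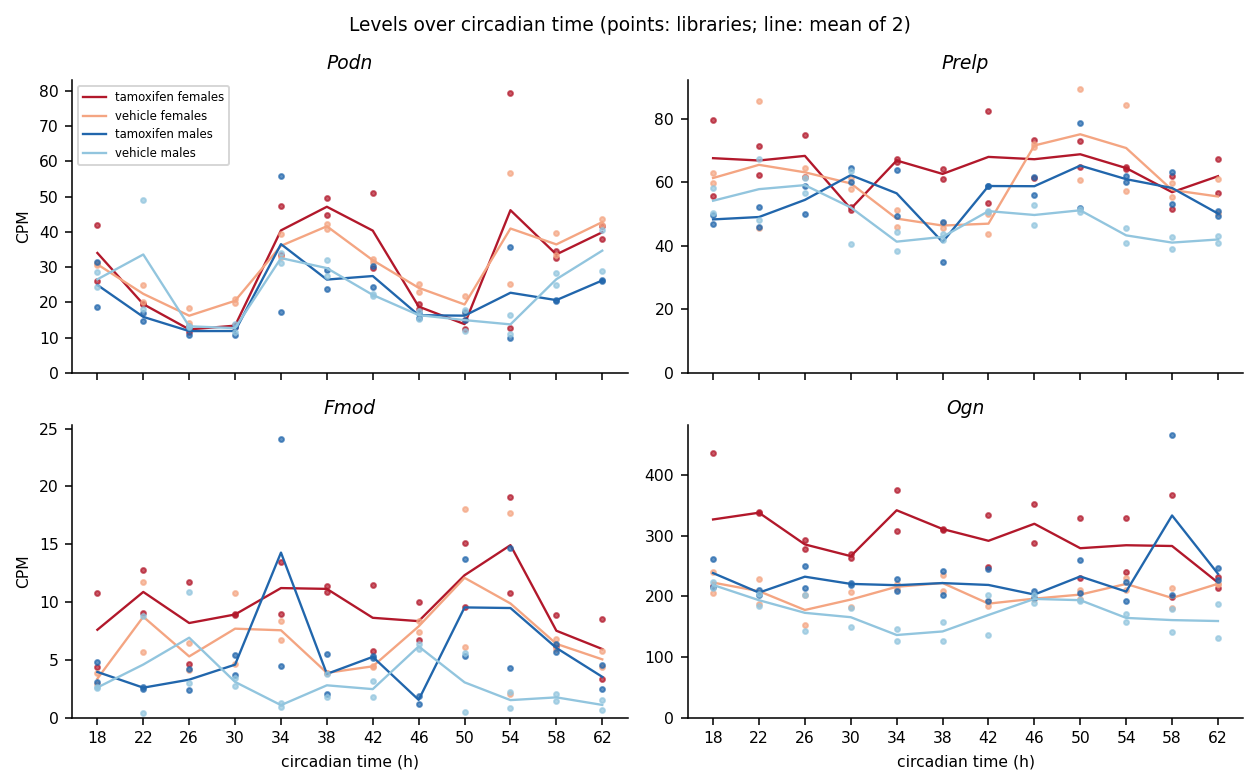
CPM of Podn, Prelp, Fmod and Ogn by circadian time in hours, with each library as a point and the mean of 2 libraries as a line, in the 4 groups. Podn was high at ct 38 and low at ct 26, times near its fitted peak and trough, in every group. Single libraries such as the 79.5 CPM of Podn at ct 54 and the 465 CPM of Ogn at ct 58 set several of the sharp rises.

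The other rhythms were found in fewer groups. Prelp was called in vehicle females (amplitude 0.25 ± 0.06, peak ct 1.5, adjusted p = 0.00128) and vehicle males (0.23 ± 0.06, peak ct 23.1, adjusted p = 0.00305) and in neither tamoxifen group, but its change with tamoxifen did not pass in females (vector 0.23 ± 0.08, adjusted p = 0.239) or males (0.24 ± 0.08, adjusted p = 0.069). Without the libraries over 20 CPM of Myl7 the Prelp rhythm in vehicle females was 0.16 and did not pass. Aspn was called in vehicle females (0.22 ± 0.08, adjusted p = 0.0488), a call that was lost in 20 of 24 alternatives. Omd was called in tamoxifen males (0.59 ± 0.17, peak ct 11.5, adjusted p = 0.0427), and without the library ending ct58_594 its amplitude there was 0.34 (adjusted p = 0.411). Ogn was called in vehicle males (0.22 ± 0.07, peak ct 22.2, adjusted p = 0.019), a call lost without ct 34 (0.20). Without the vehicle males high in TEC counts, Ogn (0.13) and Prelp (0.25) did not pass in vehicle males, and Fmod passed. Dcn, Lum, Bgn and Ecm2 were called rhythmic in 0 of the 4 groups.

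Fmod was called in both male groups with peaks far apart, at ct 8.0 in tamoxifen males (amplitude 0.78 ± 0.22, adjusted p = 0.0334) and at ct 23.5 in vehicle males (3.99-fold from fitted peak to trough, adjusted p = 0.00191). The call in tamoxifen males was lost without ct 18, 22, 34 or 46, at 0.58 to 0.84. The change of its rhythm in males passed, with a vector length of 1.59 ± 0.33 (adjusted p = 0.00233), as did those of Omd (0.92 ± 0.25, adjusted p = 0.0177) and Ogn (0.34 ± 0.10, adjusted p = 0.02), while 20.7% of all tested genes were called. Without the library ending ct58_594 the changes of Omd and Ogn were 0.63 and 0.22 and did not pass (adjusted p = 0.117 and 0.132), and Fmod passed. Without ct 22 the changes of Omd and Ogn were 0.80 and 0.35 and did not pass either, and that of Ogn did not pass without ct 46 (0.34). The highest Fmod library of the tamoxifen males, 24.1 CPM at ct 34, was also its highest in Myl7, and without the 13 libraries over 20 CPM of Myl7 the Fmod rhythm in tamoxifen males was 0.55 and did not pass, while its change in males was 1.33 and passed (adjusted p = 0.013). Rhythms of mesothelial markers were called in 6 of 8 cases in vehicle males, with Lrrn4 at 1.47 ± 0.34 and Upk3b at 1.28 ± 0.29, and in 0 of 8 in tamoxifen males. Of all tested genes, 55.2% were called rhythmic in vehicle males and 8.03% in tamoxifen males. The part of the mesothelial markers in the Fmod rhythm was not tested. In females a change of rhythm with tamoxifen was called for 0 of the 10 genes by edgeR and by DESeq2 and for 0.237% of all tested genes, and the unadjusted p was under 0.05 for 1 gene, Prelp (0.0191).

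Across the 96 libraries, after each group's mean and fitted rhythm were removed, the 10 genes varied together to very different degrees. These correlations share library, depth and tissue sample and describe the libraries only. The closest pair was Dcn and Omd (r = 0.75, rho = 0.71), followed by Dcn and Lum (r = 0.73, rho = 0.67), neighbours on chromosome 10. Within the chromosome 13 cluster, Omd correlated with Ecm2 at 0.70, with Ogn at 0.68 and with Aspn at 0.62. Within groups of 24, r of Omd and Ogn was 0.90 in tamoxifen females, 0.43 in vehicle females, 0.77 in tamoxifen males and 0.06 in vehicle males, and that of Omd and Ecm2 was 0.81, 0.27, 0.83 and 0.73 in the same order. In tamoxifen females the library ending ct18_575 was the highest for all 3 genes, and in tamoxifen males that ending ct58_594. Omd had only 16 to 67 counts in vehicle females and 14 to 64 in vehicle males. The part of single libraries and low counts in these values of r was not tested. Prelp and Fmod, the neighbours on chromosome 1, reached 0.38. The lowest pair was Fmod and Ogn (r = -0.01, rho = 0.10).

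**Figure D4:**
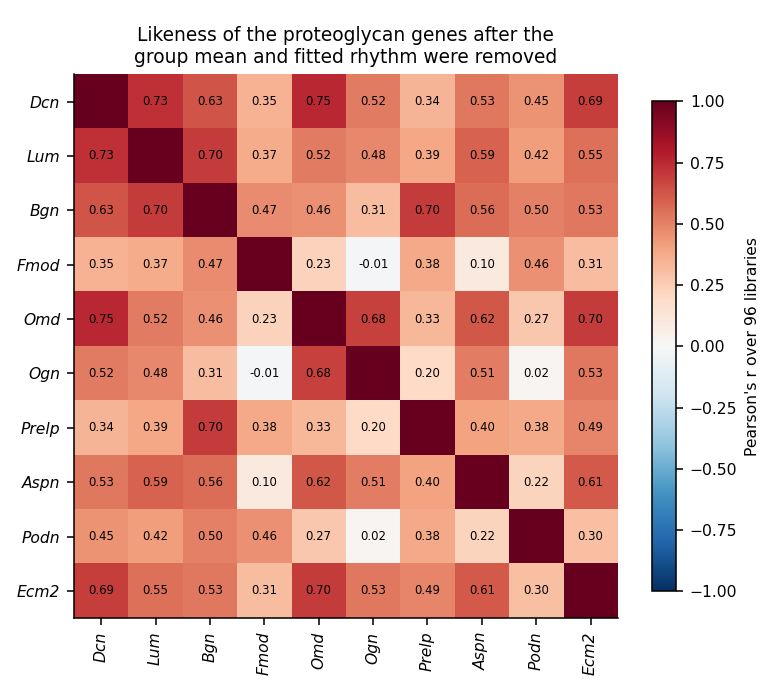
Pearson correlation of residual log2 CPM over 96 libraries for every pair of the 10 genes, coloured from -1 to 1, with the value in each cell. Dcn, Lum, Omd and Ecm2 were close to each other, from 0.52 to 0.75, and Fmod and Podn reached at most 0.47 and 0.50 with any other of the genes.

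The genes of the whole table (at least 5 CPM on average) whose residuals were most like each member's differed by member. Fmod was closest to Upk3b (r = 0.86, rho = 0.82) and Msln (r = 0.81, rho = 0.79), which are mesothelial markers, and to Gpc3 (r = 0.80, rho = 0.78). Among the genes closest to Dcn were Mgp (r = 0.87, rho = 0.85) and Gsn (0.85, 0.84), and Lum was closest to Ccdc80 (0.76, 0.74), the collagen gene Col1a2 (0.76, 0.69) and Dcn. Bgn was closest to Cilp, Mfap4 and Serpinf1, at r of 0.83, 0.83 and 0.82. Omd was closest to Inmt, Ptn and Dcn, at 0.81, 0.78 and 0.75. Ogn was closest to Sdc2 (0.74), Lhfp (0.65) and Sfrp1 (0.64), and Prelp to Fn1 (0.78), Lrp1 (0.78) and Itih5 (0.72). Aspn was closest to Naalad2 (0.74), Itgbl1 (0.74) and Col8a1 (0.72), and among the genes closest to Ecm2 were Dpt and Kcnt2 (0.73 each). For Podn the closest were Gng2 (r = 0.78, rho = 0.53), Olfm1 (r = 0.78, rho = 0.57) and Ptgfr (r = 0.72, rho = 0.49), where rho lay well below r. Against the summed fibroblast markers, r was 0.82 for Dcn, 0.74 for Lum and Bgn, 0.64 for Ecm2, 0.60 for Podn, 0.57 for Omd, 0.50 for Prelp, 0.48 for Aspn, 0.45 for Fmod and 0.39 for Ogn. Much of that sum was Gsn, itself among the genes closest to Dcn.

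The lists of other pathway genes are to be read beside the share of all tested genes called, 27.5% with tamoxifen in females, 70% in males, 7.68% between sexes in tamoxifen hearts and 68.3% in vehicle hearts. Of 8 further family members, 3 passed the filter, with 0 calls with tamoxifen in females and 2 falls in males, Nyx by 0.42 and Chadl by 0.22. Of 26 tested enzymes that build the glycosaminoglycan chains, 2 rose and 1 fell with tamoxifen in females (Chst1 by 0.23), and 6 rose and 8 fell in males. In males the xylosylkinase gene Fam20b changed most (0.78 ± 0.08), and the sulfotransferase gene Chst1 fell by 0.43, B4galt4 by 0.42 and the sulfate donor synthase gene Papss2 by 0.32. Between sexes, 3 were higher and 1 lower in tamoxifen females, and 8 higher and 9 lower in vehicle females. Papss2 was lower in females in both, with differences of -0.24 ± 0.06 in tamoxifen hearts and -0.51 ± 0.06 in vehicle hearts.

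Of 14 fibril proteins, the partners on which the proteoglycans sit, 1 rose and 1 fell with tamoxifen in females, Col12a1 (0.65 ± 0.18) and Col5a1 (-0.15 ± 0.06). In males 0 rose and 5 fell, among them Col5a3 by 0.38 and Eln by 0.35. Col14a1, a collagen of fibril surfaces, was higher in females by 1.43 ± 0.12 in tamoxifen hearts and passed in vehicle hearts too (adjusted p = 1.42e-18), and Col6a3 by 0.46 ± 0.08 and 0.34 ± 0.08. In all, 5 fibril genes were higher and 0 lower in tamoxifen females than males, and 4 were higher and 2 lower in vehicle females. Rhythms were called for 10 of 14 in tamoxifen females, 11 in vehicle females, 9 in tamoxifen males and 5 in vehicle males. The corresponding numbers of the 10 proteoglycan genes were 1, 3, 3 and 4. The shares of all tested genes called rhythmic were 17.1%, 34.5%, 8.03% and 55.2% in the same order of groups. Col5a3 had amplitudes of 1.05 ± 0.08, 1.04 ± 0.08, 0.89 ± 0.08 and 0.94 ± 0.08 in that order of groups, Fbn1 0.58 ± 0.07, 0.87 ± 0.07, 0.54 ± 0.07 and 0.46 ± 0.07, and Col3a1 0.66 ± 0.10, 0.73 ± 0.10, 0.55 ± 0.10 and 0.38 ± 0.10.

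Of 13 tested proteases and enhancers that process matrix proteins, 1 rose and 2 fell with tamoxifen in females, and 1 rose and 7 fell in males. Htra1, a serine protease that cleaves proteoglycans, rose in both, by 0.19 ± 0.06 and 0.46 ± 0.06. The proteoglycanase Adamts5 fell in males by 0.41, Bmp1, which trims the Bgn propeptide, by 0.38 and Mmp9 by 0.48, while in females Tll2 fell by 1.04 and Mmp13 by 0.40. In vehicle hearts 2 were higher and 6 lower in females, with Adamts5 at -0.70 ± 0.07, and in tamoxifen hearts 0 were higher and 1 lower.

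Of 23 tested ligands and receptors that the core proteins bind, 3 rose and 6 fell with tamoxifen in females, and 7 rose and 9 fell in males. Ccn4, a matricellular partner of Dcn and Bgn, fell most in both, by 1.24 and 0.76. Tgfb3 rose by 0.41 ± 0.06 in females and did not pass in males (-0.02 ± 0.06). Among the calls in males, Tgfb1 fell by 0.46 and Erbb4 rose by 0.61 ± 0.09. In tamoxifen hearts 4 were higher in females, Bmp4 (0.37 ± 0.08), Tgfb3 (0.26 ± 0.06), Lrp1 (0.24 ± 0.06) and Tgfbr1 (0.23 ± 0.04), and 0 were lower. In vehicle hearts 12 were higher and 4 lower in females, with Ccn4 at 1.05 ± 0.21 and Erbb4 at 0.72 ± 0.08.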

How the data were processed

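RNA of mouse ventricles was poly-A selected and sequenced on a NovaSeq, per the labels' protocols. The authors deposited raw counts per gene for 96 libraries, with no scaling applied. Tools named in the submitters' processing notes are HISAT2, Picard and HTSeq with the builds GRCm38 and mm10; the sources used here give neither versions nor strand settings. All columns matched 1 library each (0 left over). No 2 libraries of a group and time agreed within sampling noise (48 pairs, chi-square per gene 3.86 to 99.6). The labels do not say that libraries came from separate animals, so p-values measure the spread between libraries, which may be technical.

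Genes were filtered (filterByExpr by group, minimum count 10), scaled by TMM on whole library totals and fitted in R 4.3.3 with edgeR 4.0.16 (glmQLFit, glmQLFTest) in 1 model of all 96 libraries, with a mean, cosine and sine of a 24 h period per group (12 coefficients, 84 residual degrees of freedom). P-values were adjusted over all 15629 tested genes (Benjamini-Hochberg, threshold 0.05). Log2 changes and amplitudes carry standard errors, CPM are counts over TMM-scaled library totals and carry standard deviations. A change of rhythm is the length of the vector between fitted cosine and sine terms and has no sign. The script was tested on simulated data. Alternatives were DESeq2 1.42.0, other scalings, no filter, 1 mean per group and time, each 24 h alone, length and GC offsets, and libraries or times left out. The test of rhythm change between the sexes, the number run as a term, the list counts under the alternatives and the fit without the tamoxifen male library ending ct58_594 were chosen after seeing the data. Members, lists and tests were chosen with earlier results of these data known. All 10 members are named; of each list, at most 4 called genes per comparison with the largest change, apart from genes repeated across comparisons or named for contrast; likeness names the 3 closest genes, of which 1 is not reported here. Levels per kb use merged exons of GENCODE M21. Counting limits precision, as 1 count is 0.0486 to 0.112 CPM on the unscaled totals, and such counts carry no molecular identifiers, so reads may repeat molecules.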

Additional observations from a re-analysis of the deposited data

Results flagged for a closer look

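The change with tamoxifen differed between females and males, by the test of the difference itself, for 5 of the 10 genes, where 52.3% of all tested genes were called, a share close to that of the 10 genes. The values, females minus males on the log2 scale, were 0.46 for Dcn, 0.41 for Lum, 0.37 for Bgn, 0.72 for Omd and 0.37 for Aspn. In the second 24 h alone Dcn, Bgn, Omd and Aspn were not called (adjusted p = 0.0684, 0.19, 0.53 and 0.0769). Omd was also not called without ct 34, without the vehicle males high in TEC counts or with offsets for length and GC content, nor Aspn with those offsets, and Lum was not called without the tamoxifen libraries numbered 570 or above.

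The change of rhythm with tamoxifen also differed between the sexes for Fmod, with a vector length of 1.53, and for Ogn, with 0.46, where 10.3% of all tested genes were called. This test was chosen after seeing the data. Fmod lost the call in 14 of 24 alternatives and Ogn in 18. Neither was called with library size alone, without a filter, in either 24 h, without the TEC, Myl7 or 570 libraries, or without ct 18, 22, 30, 34, 46, 58 or 62. Ogn lost the call without the tamoxifen female library ending ct54_559 (0.45, adjusted p = 0.0513) and without the tamoxifen male library ending ct58_594 (0.34, adjusted p = 0.109), and without the 13 libraries over 20 CPM of Myl7 Fmod was at 1.37 (adjusted p = 0.0676).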

How the results depend on the processing

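No paired analysis was possible because the library numbers in the titles are shared by no 2 groups. Over 26 alternatives, the 120 values of the 10 genes gave 2940 values, of which 2624 kept direction and call, 234 lost a call, 51 gained one and 31 changed sign; 8 of 52 calls held throughout. Leaving out 1 time at a time, the numbers of the 10 genes called were, for tamoxifen in females, 4 to 8 higher; in males, 3 to 4 higher and 0 to 3 lower; for the difference between sexes in that change, 4 to 6 positive; for sex in tamoxifen hearts, 7 to 9 higher, and in vehicle hearts, 5 to 6 higher and 2 lower; for rhythms, 1 in tamoxifen females, 2 to 4 in vehicle females, 0 to 3 in tamoxifen males and 3 to 5 in vehicle males; for rhythm change in males 1 to 4, and between sexes 0 to 3.

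Numbers that moved by over 1.5 times follow. Tamoxifen in females (8 higher): 4 in the first 24 h, 4 in the second and 4 without the libraries numbered 570 or above. Tamoxifen in males (4 higher, 2 lower): 2 higher with library size alone and 1 in the first 24 h; 1 lower with DESeq2, with 1 mean per group and time, with offsets, and without the TEC, Myl7 or 570 libraries; 0 lower with relative log expression, without a filter and in the second 24 h; 4 lower with library size alone. Difference between sexes (5 positive): 1 positive and 1 negative in the second 24 h. Sex in vehicle hearts (6 higher, 2 lower): 3 higher in the first 24 h; 1 lower in the second 24 h and with offsets, 0 without the TEC libraries. Sex in tamoxifen hearts (9 higher): 2 in the second 24 h and 5 without the 570 libraries. Rhythms: in tamoxifen females (1) 0 in the second 24 h; in tamoxifen males (3) 1 in the first 24 h, in the second and without the Myl7 libraries, 0 without the 570 libraries; in vehicle females (3) 1 in each 24 h and without the Myl7 libraries; in vehicle males (4) 1 in the second 24 h and 2 without the TEC libraries. Rhythm change in males (3): 1 in the first 24 h, without the TEC, Myl7 or 570 libraries and without the library ending ct58_594, 0 in the second 24 h. Rhythm change between sexes (2): 0 with library size alone, no filter, either 24 h and without the TEC, Myl7 or 570 libraries, 1 without the library ending ct54_559 and 1 without ct58_594. A single 24 h holds fewer libraries, and so do the runs without the TEC, Myl7 or 570 libraries. Without the 570 libraries no tamoxifen male remained at ct 30 or ct 62 and no tamoxifen female at ct 46. Without the TEC libraries no vehicle male remained at ct 30 or ct 34, and without the Myl7 libraries no vehicle library at ct 18. The cause of the moves was not tested.

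Signs changed for the following values, of which Aspn in males and Ecm2 between the sexes in vehicle hearts were calls. Tamoxifen in males: Dcn 0.02 in the second 24 h; Aspn 0.03 with offsets; Podn 0.07 in the second 24 h, 0.03 without the 570 libraries and -0.19 to 0.03 leaving out 1 time; Ecm2 -0.06 with library size alone, -0.12 in the first 24 h, -0.09 without the 570 libraries, -0.01 without ct 58 and -0.01 without the library ending ct58_594. Difference between sexes: Fmod 0.12 in the first 24 h and 0.04 without the Myl7 libraries; Ogn -0.07 with offsets; Prelp 0.15 in the first 24 h and 0.00 without the Myl7 libraries; Podn -0.00 without a filter, -0.02 with 1 mean per group and time, -0.11 in the second 24 h, -0.16 without the library ending ct54_559, -0.04, -0.06 and -0.06 without the TEC, Myl7 and 570 libraries and -0.09 to 0.09 leaving out 1 time; Ecm2 -0.05 in the second 24 h. Sex in vehicle hearts: Bgn -0.06 in the first 24 h, -0.02 without the Myl7 libraries and -0.01 with offsets; Omd -0.09 in the first 24 h, -0.02 without ct 38 and -0.01 without ct 46; Ecm2 -0.03 in the first 24 h.

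Over all tested genes, calls of rhythm change in males numbered 3237, against 1783 and 97 without the Myl7 and 570 libraries and 1 in the second 24 h; in females 37, against 3 in each 24 h, 144 with DESeq2 and 654 without the Myl7 libraries; between sexes 1616, against 2 without ct 34, 3 without ct 22 and 0 without the 570 libraries. Calls of lower genes with tamoxifen in males were 5905, against 3185 without the TEC libraries.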
